A study of Mus musculus with 29 samples.

Results

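Brain metastases collected on day 3 were compared between mice given an antibody against PD-L1 ahead of the combination (the lead-in combination) and mice given the combination from its start (the concurrent combination). Both arms received trametinib with anti-PD-L1 in an experimental metastasis model of Braf-mutated melanoma, so the labels of the arms differ only in the lead-in. The columns were chosen by their titles, and 8 of the 29 samples of the series belong to the comparison, 4 in each arm. Each title carries a number and a part, and the lead-in samples are 12-1, 12-2, 14-1 and 14-2, whereas the concurrent samples are 1-1, 1-2, 6-1 and 6-2. What numbers and parts stand for is not explained in the labels, which also give no strain, dose or length of the lead-in. The parts of a number were not taken as independent, which leaves 2 numbers per arm. The permutation p-values over numbers measure only the spread between these numbers. The main tests of V and J segments, described below, estimate the spread within the treatments of all 10 brain libraries. The series title names the question, which is whether anti-PD-L1 before a MAPK inhibitor combination improves anti-tumour efficacy and immunity.

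A T cell carries a receptor made of an alpha and a beta chain, each joined during development from V and J segments (and a D segment in the beta chain). The join forms the CDR3, the stretch that varies most and contacts the antigen, so a clonotype was defined by its V and J segments together with the amino acids of its CDR3. T cells that recognise antigen divide, and their clonotype then takes a larger share of the receptor transcripts of the tissue. PD-L1, on tumour and myeloid cells, restrains T cells through their receptor PD-1, while the kinase MEK of the MAPK pathway is the target of trametinib. Beta (TRB) and alpha (TRA) chains were counted in separate transcripts, so the files do not tell which alpha chain belongs to which beta chain. In RNA of a whole tissue, more T cells and more receptor RNA per cell cannot be told apart. The counts carry no normalization, so more RNA put into a library and deeper sequencing cannot be told apart from these either.

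The CDR3 sequences below are those on which the results turn. They are examples from the 5 leading beta and alpha clonotypes of each number, among those short enough to be shown whole, and the alpha clonotype that was found in all 8 samples. Segment names joined by a plus sign are those the deposited table could not separate.
Number 12, TRBV23 with TRBJ2-7: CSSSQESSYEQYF
Number 12, TRBV20 with TRBJ2-7: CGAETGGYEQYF
Number 14, TRBV2 with TRBJ2-7: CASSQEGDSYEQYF
Number 14, TRBV19 with TRBJ2-7: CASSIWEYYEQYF
Number 1, TRBV16 with TRBJ1-1: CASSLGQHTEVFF
Number 1, TRBV14 with TRBJ2-1: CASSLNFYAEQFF
Number 6, TRBV4 with TRBJ2-3: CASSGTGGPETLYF
Number 6, TRBV31 with TRBJ1-3: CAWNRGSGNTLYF
Number 12, TRAV7D-2 with TRAJ49: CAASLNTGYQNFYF
Number 14, TRAV7D-2 with TRAJ22: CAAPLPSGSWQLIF
Number 14, TRAV7D-2 with TRAJ43: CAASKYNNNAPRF
Number 1, TRAV8-1+TRAV8D-1 with TRAJ35: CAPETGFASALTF
Number 6, TRAV7D-2 with TRAJ23: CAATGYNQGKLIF
All 4 numbers, TRAV7D-2 with TRAJ23: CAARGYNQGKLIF

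Receptor counts were higher in every lead-in sample than in every concurrent sample, for both chains. TRB counts were 6073, 6238, 7067 and 4148 in lead-in samples 12-1, 12-2, 14-1 and 14-2, and 1373, 3195, 1300 and 1527 in concurrent samples 1-1, 1-2, 6-1 and 6-2. TRA counts were 8893, 9389, 8034 and 5192 in the lead-in samples and 1697, 4272, 1698 and 1918 in the concurrent samples. The lowest lead-in sample was 14-2 and the highest concurrent sample was 1-2, and the arms did not overlap. Over numbers, the log2 TRB count was higher by 1.75 with the lead-in and the log2 TRA count by 1.80, a 3.36-fold difference for TRB. The exact permutation test over 2 numbers per arm has 6 assignments, so its p of 0.333 (adjusted p = 0.444 over the 8 measures) is the smallest it can give and lies above the threshold of 0.05. With each part taken as a sample of its own, which the design does not support, the exact permutation test gave p = 0.0286 for both counts, the smallest that 70 assignments allow, and an adjusted p of 0.0571. The ratio of TRA to TRB counts was 1.14 to 1.51 in the lead-in samples and 1.24 to 1.34 in the concurrent ones, so both chains moved together. As the counts carry no normalization, the amount of RNA and the depth of sequencing cannot be told apart from the arm here.

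Neither arm held more different clonotypes throughout once the depth was made equal. As counted, they held 1055, 1210, 994 and 708 TRB clonotypes, against 563, 1036, 442 and 481 in the concurrent samples. In 1300 TRB counts, the lowest total of the 8 samples, 493, 565, 470 and 426 clonotypes were expected in the lead-in samples and 548, 664, 442 and 451 in the concurrent ones. In 1697 TRA counts the expected numbers were 527, 641, 621 and 431 with the lead-in and 494, 699, 487 and 475 without it. The arms overlapped in both chains. On the log2 scale the arms differed by -0.10 (TRB) and 0.04 (TRA), with an exact permutation p of 1 in each chain over numbers. Numbers 1 and 6, of the same arm, lay at 9.24 and 8.80 for log2 TRB richness, a wider gap than that between the arms.

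The leading clonotypes held a larger share of the counts in the lead-in samples, without overlap in TRA and with overlap in TRB. The largest TRB clonotype took 8.83%, 7.23%, 11.8% and 14.3% of counts in the lead-in samples and 5.24%, 1.66%, 10.2% and 6.35% in the concurrent samples. For TRA it took 23.8%, 17.6%, 7.21% and 9.57% against 3.59%, 3.89%, 4.83% and 7.09%. Every lead-in sample had a larger leading TRA clonotype than every concurrent sample, although 14-1 and 6-2 nearly met, and the TRB values overlapped through sample 6-1. The 10 largest TRA clonotypes together held 41.2%, 32.3%, 24.4% and 38.7% in the lead-in samples and 20.1%, 17.2%, 24.2% and 20.5% in the concurrent samples. The 10 largest TRB clonotypes held 29.2%, 24.4%, 30.4% and 33.8% against 15.6%, 10.3%, 26.5% and 19.3%, with 6-1 again inside the lead-in range.

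The Simpson concentration, the chance in percent that any pair of counts drawn from a sample shares a clonotype, was higher in every lead-in sample for TRA, and for TRB sample 6-1 lay inside the lead-in range. It was 1.56%, 1.07%, 1.99% and 2.70% for TRB in the lead-in samples and 0.555%, 0.236%, 1.49% and 0.757% in the concurrent samples. For TRA it was 6.20%, 3.53%, 1.16% and 2.58% against 0.658%, 0.533%, 0.867% and 0.967%. Over numbers the lead-in arm was higher by 1.07 percentage points for TRB and 2.61 for TRA, and by 11.5 (TRB) and 13.6 (TRA) points for the 10 largest clonotypes. Each of the 4 differences had both lead-in numbers above both concurrent numbers and an exact permutation p of 0.333 (adjusted p = 0.444), the smallest possible. Single numbers weighed on these differences. The TRA concentration difference was 1.12 points without number 12 and 4.11 without number 14. The TRB concentration difference was 0.555 without number 14 and 0.708 without number 1. The difference of the 10 largest TRB clonotypes was 6.52 without number 1. Without the largest clonotype of each sample, the concentration differed by 0.543 points (TRA) and 0.433 (TRB), and the share of the 10 largest TRA clonotypes by 6.36. Number 12 led in TRA concentration and number 14 in TRB concentration, so the 2 lead-in numbers differed in which chain was the more concentrated.

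**Figure D1:**
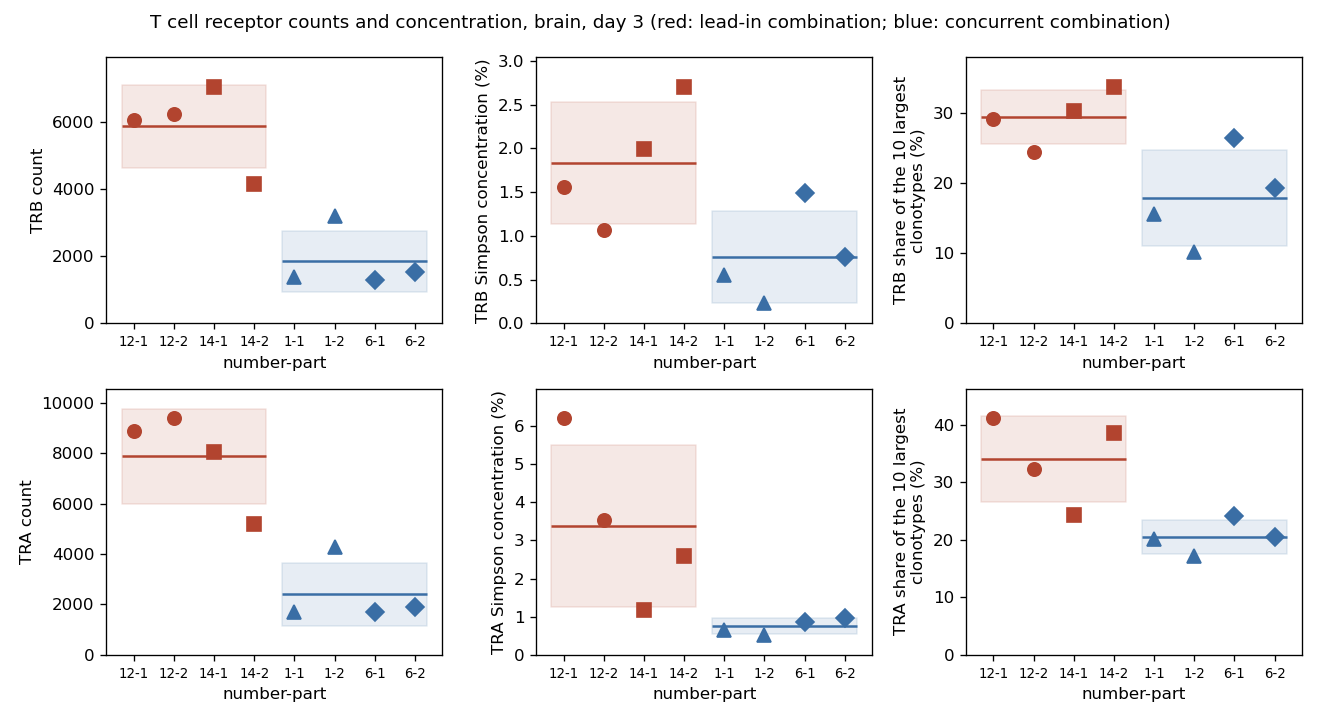
Points give each brain sample's value (x axis, number and part) for TRB (top) and TRA (bottom): the count, the Simpson concentration in percent and the share of the 10 largest clonotypes in percent; lines are means of the 4 samples of an arm and shading is 1 SD. Counts of the arms do not overlap (TRB 4148 to 7067 against 1300 to 3195), whereas the TRB concentration of sample 6-1 (1.49%) lies inside the lead-in range.

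Clonotypes of 1% or more were then taken as the large ones. Among TRB they held 32.3%, 21.8%, 32.7% and 32.0% of counts in the lead-in samples and 12.4%, 6.07%, 28.6% and 16.6% in the concurrent samples. They numbered 13, 7, 12 and 8 with the lead-in and 6, 5, 12 and 7 without it, so the ranges of their number overlapped more than those of their share. For TRA they held 40.4%, 29.1%, 22.5% and 36.8% against 20.1%, 14.4%, 25.3% and 17.4%, and numbered 6 to 9 against 6 to 11. Sample 14-1 lay below sample 6-1 in that share, so the TRA values of the arms overlapped in share and in number. A clonotype at 1% has an exact (Clopper-Pearson) 95% interval of 0.534% to 1.70% in the shallowest TRB sample, 6-1, and of 0.785% to 1.27% in the deepest, 14-1. Intervals cover counting error only, since counts may be reads of PCR copies, which the labels leave unsaid. Classes under 1% depend on depth and were not compared: under 0.1% of TRB counts, samples 1-1, 6-1 and 6-2 held nothing but single counts (19.6%, 15.5% and 12.2%). Single TRB counts took 4.09% to 7.09% of the lead-in samples.

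**Figure D2:**
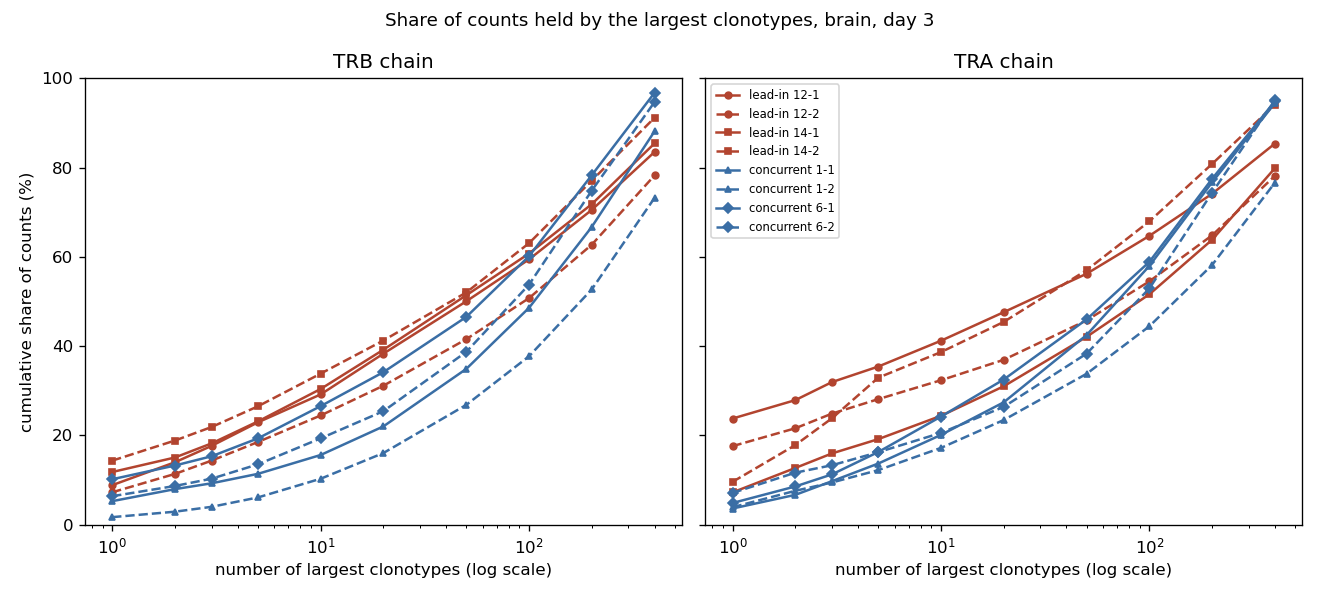
Lines give the cumulative share of counts in percent (y axis) held by the largest clonotypes of each sample, up to the 400 largest (x axis, log scale), for TRB (left) and TRA (right); red is the lead-in and blue the concurrent combination, dashed lines are part 2. In TRA the lead-in lines start higher (largest clonotype 7.21% to 23.8% against 3.59% to 7.09%) and meet those of the concurrent arm from the 20 largest on, whereas in TRB sample 6-1 (10.2% at the start) lies among the lead-in lines.

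The leading beta clonotypes of the lead-in numbers were large in both parts. In number 12, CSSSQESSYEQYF (TRBV23 with TRBJ2-7) took 8.83% (95% interval 8.12% to 9.57%, 536 counts) of part 1 and 7.23% (6.60% to 7.90%, 451 counts) of part 2. It was followed by a TRBV3 clonotype with TRBJ2-3 and a CDR3 of 15 residues (5.14% and 4.12%), a TRBV5 clonotype with TRBJ1-4 of 15 residues (3.67% and 2.23%), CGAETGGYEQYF (2.22% and 2.98%) and a TRBV14 clonotype of 18 residues (3.05% and 1.94%). In number 14 the largest was a TRBV29 clonotype with TRBJ2-1 and a CDR3 of 16 residues, at 11.8% (11.03% to 12.5%) of part 1 and 14.3% (13.3% to 15.4%) of part 2. The next were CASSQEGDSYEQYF (3.17% and 3.04%), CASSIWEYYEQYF (1.67% and 4.51%), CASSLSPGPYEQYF of TRBV26 (3.25% and 1.88%) and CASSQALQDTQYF of TRBV5 (2.69% and 2.17%). All 10 of these clonotypes were in both parts, and none was found in another brain number, of either arm or of the other treatments. Among the 10, 5 used TRBJ2-7.

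Of the 10 leading beta clonotypes of the concurrent numbers, 5 differed by more than 4-fold between the parts. In number 1, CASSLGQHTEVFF took 5.24% (4.13% to 6.56%, 72 counts) of part 1 and 0.438% (0.240% to 0.734%, 14 counts) of part 2, and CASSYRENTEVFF of TRBV13-1 took 2.69% and 0.563%. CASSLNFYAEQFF, at 1.09% and 1.00%, was level in the parts, and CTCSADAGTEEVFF of TRBV1 (0.728% and 1.22%) and a TRBV13-2 clonotype of 16 residues (1.31% and 0.626%) lay close to 1%. In number 6, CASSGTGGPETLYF took 10.2% (8.57% to 11.9%, 132 counts) of part 1 and 1 count, 0.0655%, of part 2. A TRBV13-2 clonotype of 16 residues did the reverse, with 6.35% (5.18% to 7.69%, 97 counts) of part 2 and 0 of 1300 counts in part 1, which allows up to 0.231%. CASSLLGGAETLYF of TRBV16 took 3.08% and 0.131%. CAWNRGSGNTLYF (2.00% and 2.29%) and a TRBV4 clonotype of 16 residues with TRBJ1-6 (1.46% and 1.64%) were level. None of the 10 was found in another brain number, and none used TRBJ2-7.

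The parts of a number can be compared over all clonotypes with the Morisita-Horn index, which is 100% for equal shares and 0% where no clonotype is shared. For TRB it was 91.5% in number 12 and 92.0% in number 14, against 32.4% in number 1 and 13.6% in number 6. The lead-in numbers were thus higher by 68.8 points on average, and by 44.3 points without each sample's largest clonotype. The index falls at low depth, so the unbiased Morisita index was also taken, and it gave 92.6% and 92.8% against 36.6% and 14.4%. For TRA the Morisita-Horn index was 94.8% and 74.3% with the lead-in and 68.4% and 37.5% without it, a difference of 31.6 points in which numbers 14 and 1 were close. The TRA difference was 16.1 points without number 6, 21.3 without number 12, 41.8 without number 14 and 47.0 without number 1, and 47.8 without each sample's largest clonotype. With 2 numbers per arm an exact permutation test cannot go below 0.333, and no test is given for the index.

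The large clonotypes were also compared one by one between the parts. Of the TRB clonotypes of 1% or more in either part, 11 of 14 in number 12 and 8 of 13 in number 14 lay within 2-fold between the parts, with a median fold of 1.49 and 1.48. In number 1 this held for 2 of 10 and in number 6 for 3 of 16, with a median fold of 4.90 and 8.61. All 14 and all 13 of the lead-in numbers were seen in the other part, as were 9 of 10 in number 1 and 11 of 16 in number 6. For TRA the median fold was 1.35, 1.69, 2.13 and 7.15 in numbers 12, 14, 1 and 6. In TRB both concurrent numbers stood apart from the lead-in numbers, and in TRA number 6 did, with number 1 nearer to the lead-in numbers.

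Depth moved with these values, and its part in them was not tested beyond the unbiased index. In brain numbers of the other treatments, the TRB Morisita-Horn index between parts was 52.4% in number 11 (lead-in alone, 5317 and 1273 counts). It was 3.83% in number 10 (lead-in alone), 7.63% in number 3 (untreated), and 15.6% and 25.5% in numbers 8 and 13 (trametinib), whose parts had 266 to 689 counts. Number 11, the deepest of these in both parts, lay between the arms described here. The parts of number 10, also with a lead-in, had little in common, at 266 and 672 counts.

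**Figure D3:**
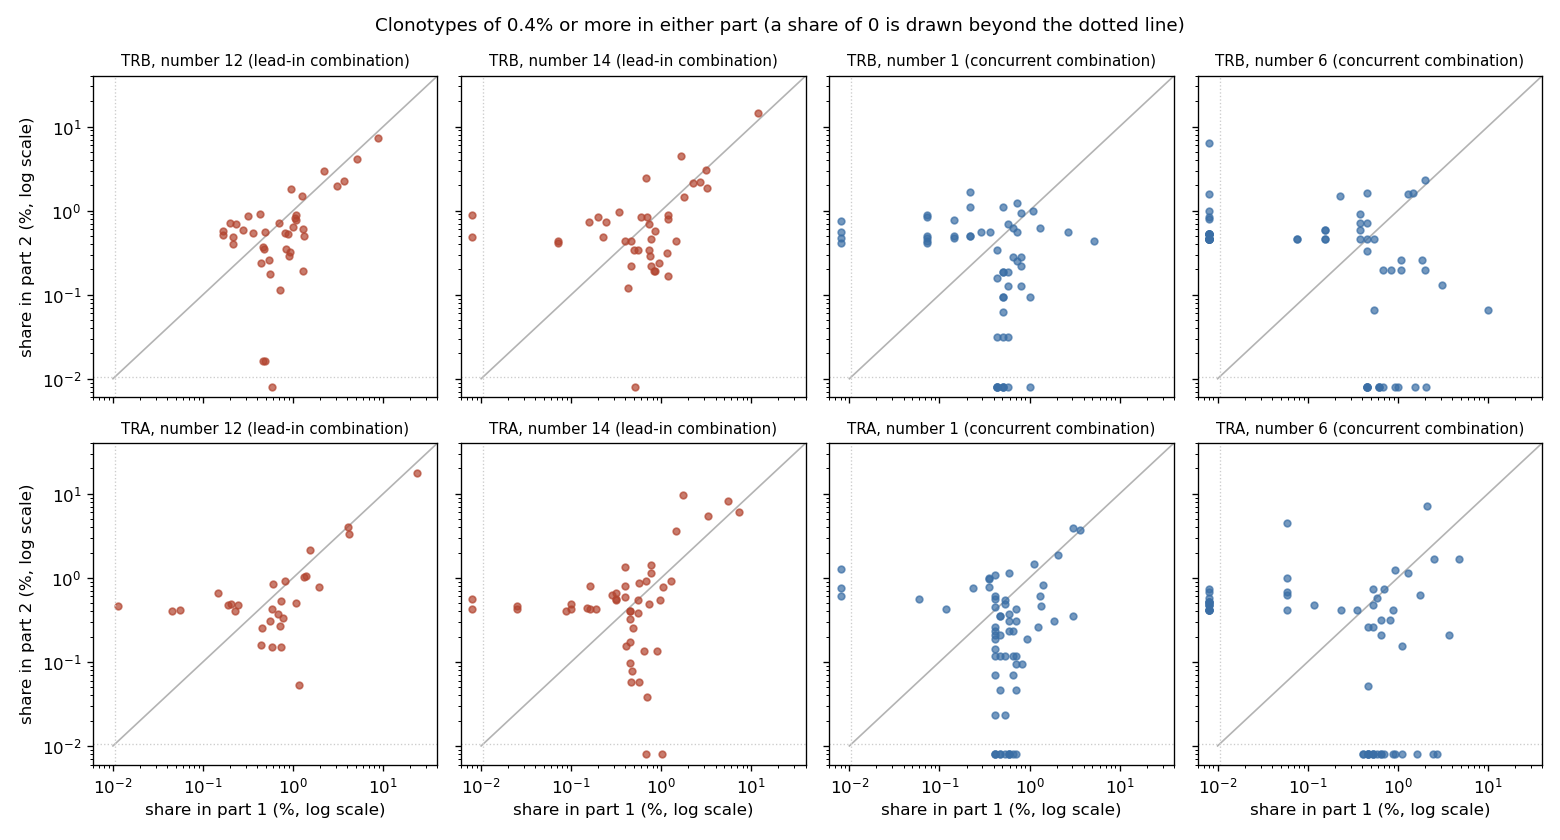
Each point is a clonotype of 0.4% or more in either part of a number, with its share in part 1 (x axis) and part 2 (y axis) in percent on log scales, TRB on top and TRA below; the diagonal marks equal shares and points beyond the dotted lines have a share of 0. Points of numbers 12 and 14 follow the diagonal at the top of the range, whereas those of number 6 scatter away from it (median fold between parts 8.61 in TRB).

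Different numbers shared few beta clonotypes, whatever their arm. The TRB Morisita-Horn index was 0.0716% to 0.662% over the 8 pairs of samples from different numbers of an arm and 0.0280% to 1.48% over the 16 pairs between arms. Numbers 12 and 14 shared 22 TRB clonotypes, 1.10% of the 2000 in number 12 and 1.48% of the 1487 in number 14. Numbers 1 and 6 shared 14, 0.957% and 1.62% of theirs, and pairs across the arms shared 10 to 23. Receiving the lead-in thus did not go with more shared beta clonotypes than crossing the arms did, as far as 1 pair of numbers per arm shows.

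Only 4 TRB clonotypes were in all 4 numbers, and together they held 0.0659% to 1.02% of the counts of a sample. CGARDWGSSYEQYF (TRBV20 with TRBJ2-7), found in 8 of the 10 brain numbers, had 0%, 0.224%, 0.142% and 0.217% in the lead-in samples and 0.0728%, 0%, 0% and 0.851% in the concurrent samples. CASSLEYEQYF (TRBV12-1 with TRBJ2-7) had 0.0659%, 0.0962%, 0.849% and 0.193% in the lead-in samples and 0.146%, 0.188%, 0.0769% and 0% in the concurrent samples, so only 14-1 stood out. It was also in 2 samples of lead-in alone, at up to 3.38%, and in the ovary parts of number 1, at 0.858% and 0.458%. The others were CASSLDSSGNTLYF (TRBV3 with TRBJ1-3), at up to 0.362%, and a TRBV31 clonotype of 15 residues, at up to 0.0769%. None of them was among the leading clonotypes of a number. The largest TRB clonotype shared across the arms, chosen after its values were seen, was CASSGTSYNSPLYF (TRBV13-1 with TRBJ1-6), with 1.33% and 0.497% in number 12, 0.801% and 0.939% in number 1, and no count in numbers 14 and 6 or any other brain sample.

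Of the clonotypes in both numbers of an arm, some were also in the other arm. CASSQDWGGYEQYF (TRBV5 with TRBJ2-7) took 0.115% to 0.482% of the lead-in samples and 0.364% and 0.0626% of 1-1 and 1-2. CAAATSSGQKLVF (TRAV14-1+TRAV14N-1 with TRAJ16) took 0.202% to 0.490% of the lead-in samples and 0.353% to 0.445% of 1-1, 1-2 and 6-1. The 5 largest alpha clonotypes shared by numbers 1 and 6 were all in lead-in samples too. Other clonotypes were in both numbers of an arm and in neither of the other, and how many was not counted. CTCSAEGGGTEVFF (TRBV1 with TRBJ1-1) took 0.922%, 0.321%, 1.15% and 0.313% of the lead-in samples and 0 counts in the concurrent ones, where a count of 0 allows up to 0.0939% (1-2) to 0.231% (6-1). It was also found in 1 sample of lead-in alone, at 0.595%. Among alpha chains, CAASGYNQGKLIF (TRAV14-2+TRAV14N-2 with TRAJ23) took 0.585%, 0.426%, 0.398% and 1.33% of the lead-in samples and was in no other brain sample, but was found in 1 ovary part of number 1, at 0.0537%. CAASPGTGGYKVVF (TRAV10 with TRAJ12) took 0.731%, 0.149%, 1.06% and 0.770%, had 0 counts in the concurrent samples, and was also in both parts of a trametinib number, at up to 0.579%. In the concurrent arm the largest such TRB clonotype was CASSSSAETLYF (TRBV29 with TRBJ2-3). It took 0.250% of sample 1-2 and 0.462% of 6-1 and was also in 1 sample of lead-in alone (0.149%). A TRBV5 clonotype with TRBJ2-5 and a CDR3 of 15 residues took 0.0939% of 1-2 and 0.196% of 6-2 and was also in 1 trametinib sample (0.435%). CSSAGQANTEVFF (TRBV30 with TRBJ1-1) took 0.218% of 1-1 and 0.231% of 6-1. Each of these was in 1 part of each number of the arm. So was a TRBV20 clonotype with TRBJ1-2 and a CDR3 of 12 residues in the lead-in arm, at 0.296% of 12-1 and 0.0991% of 14-1. By contrast, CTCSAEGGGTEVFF, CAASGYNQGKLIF and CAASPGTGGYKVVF were in all 4 lead-in samples. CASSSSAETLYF had 8 and 6 counts where it was seen, and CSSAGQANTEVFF and the TRBV5 clonotype with TRBJ2-5 each had 3 and 3. The concurrent samples were shallower, and the part of depth in this contrast was not tested.

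Alpha clonotypes were shared more widely than beta clonotypes, in both arms. The TRA Morisita-Horn index was 3.23% to 11.2% over the 8 pairs within an arm and 1.03% to 16.1% over the 16 pairs between arms. Numbers 12 and 14 shared 56 TRA clonotypes, 2.61% of the 2146 in number 12 and 3.61% of the 1552 in number 14. Numbers 1 and 6 shared 21, 1.499% of the 1401 in number 1 and 2.31% of the 911 in number 6. Pairs across the arms shared 34 to 65, which were 1.58% to 4.64% of the clonotypes of a number. The 10 TRA clonotypes in all 4 numbers held 4.48% to 7.63% of counts in the lead-in samples and 3.36% to 6.62% in the concurrent samples, which overlapped.

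In every sample except 6-2 the largest of them was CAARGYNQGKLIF of TRAV7D-2 with TRAJ23, an alpha clonotype found in 9 of the 10 brain numbers. It took 4.13%, 3.29%, 3.26% and 5.51% of TRA counts in the lead-in samples and 3.06%, 3.89%, 1.77% and 0.626% in the concurrent samples. It ranked among the 5 leading alpha clonotypes of numbers 12, 14 and 1, and sample 1-2 lay within the lead-in range whereas the other 3 concurrent samples lay below it. In number 6 the leading alpha clonotype was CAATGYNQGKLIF, of the same segments, with 2.12% of part 1 and 7.09% of part 2. Counting every CDR3 within 1 substitution of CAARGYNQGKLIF, with any V segment, a class chosen after these values were seen, gave 5.97%, 4.95%, 6.36% and 8.26% in the lead-in samples and 3.83%, 4.89%, 4.54% and 8.81% in the concurrent samples. The highest value of this class was then in a concurrent sample, and the arms overlapped.

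The other leading alpha clonotypes were found in a single brain number, with 2 exceptions that are named below. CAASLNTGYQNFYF took 23.8% (22.9% to 24.7%, 2113 counts) and 17.6% (16.8% to 18.4%, 1650 counts) of the parts of number 12, and was also in 1 trametinib sample at 0.750%. The next in number 12 were a TRAV6N-6 clonotype with TRAJ32 and a CDR3 of 16 residues (4.05% and 4.005%), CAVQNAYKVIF of TRAV9D-1 (1.55% and 2.17%) and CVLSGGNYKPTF of TRAV6-1 (1.92% and 0.778%). In number 14, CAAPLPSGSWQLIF took 5.48% and 8.24%, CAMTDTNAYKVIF of TRAV16D/DV11+TRAV16N took 7.21% and 6.01%, and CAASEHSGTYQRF of TRAV14-2+TRAV14N-2 took 1.47% and 3.58%. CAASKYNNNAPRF took 1.73% (1.46% to 2.04%) of part 1 of number 14 and 9.57% (8.79% to 10.4%) of part 2, the widest fold between parts among the leading clonotypes of the lead-in arm.

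In the concurrent arm, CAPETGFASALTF took 3.59% and 3.68% of the parts of number 1, and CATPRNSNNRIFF, also of TRAV8-1+TRAV8D-1, took 2.06% and 1.87%. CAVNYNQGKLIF of TRAV7D-2 took 1.12% and 1.47%, and a TRAV6-6+TRAV6D-6 clonotype of 15 residues took 3.06% and 0.351%. In number 6, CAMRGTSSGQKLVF of TRAV16 took 0.0589% and 4.54%, and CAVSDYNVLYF of TRAV9N-3 took 3.71% and 0.209%. A TRAV7N-4 clonotype of 15 residues took 4.83% and 1.67%. A TRAV16D/DV11+TRAV16N clonotype with TRAJ11, also of 15 residues, took 2.53% and 1.67% and had 6 counts (0.0639%) in lead-in sample 12-2. The parts of number 1 were thus close for all but 1 of these alpha clonotypes, whereas in number 6 the parts of this last clonotype were the closest.

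The V segments were tested over all brain libraries with edgeR's quasi-likelihood test, the parts of a number summed, and no segment was called. Of 99 V segments, 0 (0%) had an adjusted p under 0.05 and 5 (5.05%) had an unadjusted p under 0.05, with 0 and 7 by DESeq2. The median log2 difference was -0.17 over 78 TRA and 0.02 over 21 TRB segments. TRAV7D-2 had the lowest p, and it was the V segment of 3 of the leading alpha clonotypes of the lead-in numbers beside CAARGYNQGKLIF. In the concurrent numbers, TRAV7D-2 was also that of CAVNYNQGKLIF (number 1) and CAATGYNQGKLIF (number 6). It took 34.9%, 27.4%, 17.4% and 28.2% of TRA counts in the lead-in samples and 10.4%, 11.7%, 13.8% and 15.0% in the concurrent samples, with no overlap. Its log2 difference was 1.03 ± 0.32 (SE; edgeR adjusted p = 0.389). As a share of clonotypes, each counted once, it took 6.54% to 7.65% in the lead-in samples and 6.28% to 7.49% in the concurrent ones, so its clonotypes were about as numerous and took more counts. Without the largest TRAV7D-2 clonotype of each number it held 10.5% and 15.9% in numbers 12 and 14 and 7.57% and 9.79% in numbers 1 and 6, still higher in both lead-in numbers. With 1 number left out, the arm it belonged to is 1 library that is assumed to vary like the other groups: the edgeR adjusted p was then 0.0293 without number 14, and 0.967, 0.925 and 0.963 without numbers 12, 1 and 6.

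Shares of the 8 samples did not overlap between the arms for 13 of the 99 V segments, 2 (2.02%) higher with the lead-in and 11 (11.1%) lower. Since the parts of a number go together, this is a description and not a test. TRAV7-2, named after its values were seen, was the other higher segment, with 0.371%, 0.522%, 0.274% and 0.443% against 0.0589%, 0.117%, 0% and 0.0521%. Among TRB, TRBV16 took 4.63%, 5.23%, 5.60% and 3.62% with the lead-in and 10.3%, 7.45%, 9.23% and 6.75% without it (log2 difference -0.73 ± 0.37, edgeR adjusted p = 0.794). TRBV31 took 0.889% to 1.52% against 2.10% to 3.69%, TRBV30 took 0.112% to 0.265% against 0.313% to 0.615%, and TRBV15 took 1.61% to 2.27% against 2.62% to 4.66%. Among TRA, TRAV6-6+TRAV6D-6 took 1.28% to 1.56% against 1.77% to 9.25%, TRAV14D-3/DV8+TRAV14N-3 took 0.540% to 2.10% against 2.65% to 5.47%, TRAV13D-1 took 1.12% to 1.94% against 2.00% to 3.65%, and TRAV6D-5+TRAV6N-5 took 1.83% to 2.38% against 2.71% to 4.71%. The edgeR adjusted p was 0.855 for TRBV30 and 0.794 for the others. The 3 lower segments not named here were alpha segments. These TRAV names are of segments with near-identical copies, between which reads may be split.

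In the following V segments the highest shares came with 1 clonotype in 1 number. TRBV23 took 10.4%, 8.35%, 0.0566% and 0.313% in the lead-in samples and 0.250% to 0.538% in the concurrent ones, so it was high in number 12 alone, where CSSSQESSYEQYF made up 8.03% on average. TRBV29 took 3.72%, 3.93%, 15.3% and 19.1% against 7.17% to 10.2%, with a single clonotype at 13.05% in number 14. TRBV4 was high in concurrent sample 6-1 alone, at 13.9% against 1.44% to 3.41% in the other 7 samples, and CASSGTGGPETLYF is a TRBV4 clonotype. The log2 difference was 3.66 ± 1.43 for TRBV23, 0.31 ± 0.49 for TRBV29 and -1.65 ± 0.70 for TRBV4 (edgeR adjusted p = 0.679, 0.855 and 0.731). With the largest clonotype of each number left out, that of TRBV29 turned to -0.97, lower with the lead-in.

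No J segment was called either. Of 53 J segments, 0 (0%) had an adjusted p under 0.05 by edgeR and 6 (11.3%) had an unadjusted p under 0.05, with 0 and 10 by DESeq2. The sample shares of 1 (1.89%) did not overlap and were higher with the lead-in, and those of 5 (9.43%) did not overlap and were lower. The higher one was TRBJ2-7, at 27.5%, 28.4%, 21.2% and 23.8% against 20.2%, 17.8%, 12.5% and 17.6% (log2 difference 0.57 ± 0.24, edgeR adjusted p = 0.299). Counted once per clonotype it took 19.0% to 22.9% against 17.0% to 22.9%, and without the largest clonotype of each number 19.9% and 19.4% in the lead-in numbers against 18.2% and 13.98%. The excess of TRBJ2-7 was thus in its clonotypes' sizes more than in their number.

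The lower J segments were TRBJ1-3 and 4 alpha segments. TRBJ1-3 took 2.92% to 3.88% with the lead-in and 4.76% to 10.5% without it. TRAJ5 had the largest log2 difference of them, -3.31 ± 1.31 (edgeR adjusted p = 0.299), with 0.0112%, 0.128%, 0.0996% and 0.250% against 1.30%, 1.19%, 1.65% and 0.574%. TRAJ16 took 0.652% to 1.28% against 1.47% to 5.89%, TRAJ15 took 1.91% to 2.83% against 2.88% to 7.54%, and TRAJ11 took 0.274% to 0.841% against 1.00% to 3.42%. The whole TRBJ1 cluster took 33.2%, 27.4%, 24.3% and 23.3% of TRB counts in the lead-in samples and 39.8%, 35.4%, 35.6% and 35.9% in the concurrent ones, also with no overlap. Of the 19 V and J segments with no overlap by counts, 2 (TRAV7-2 and TRBV15) also had none when each clonotype was counted once. Only these 19 were looked at in this way, so the 2 cannot be set against a share over all 99 V and 53 J segments.

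**Figure D4:**
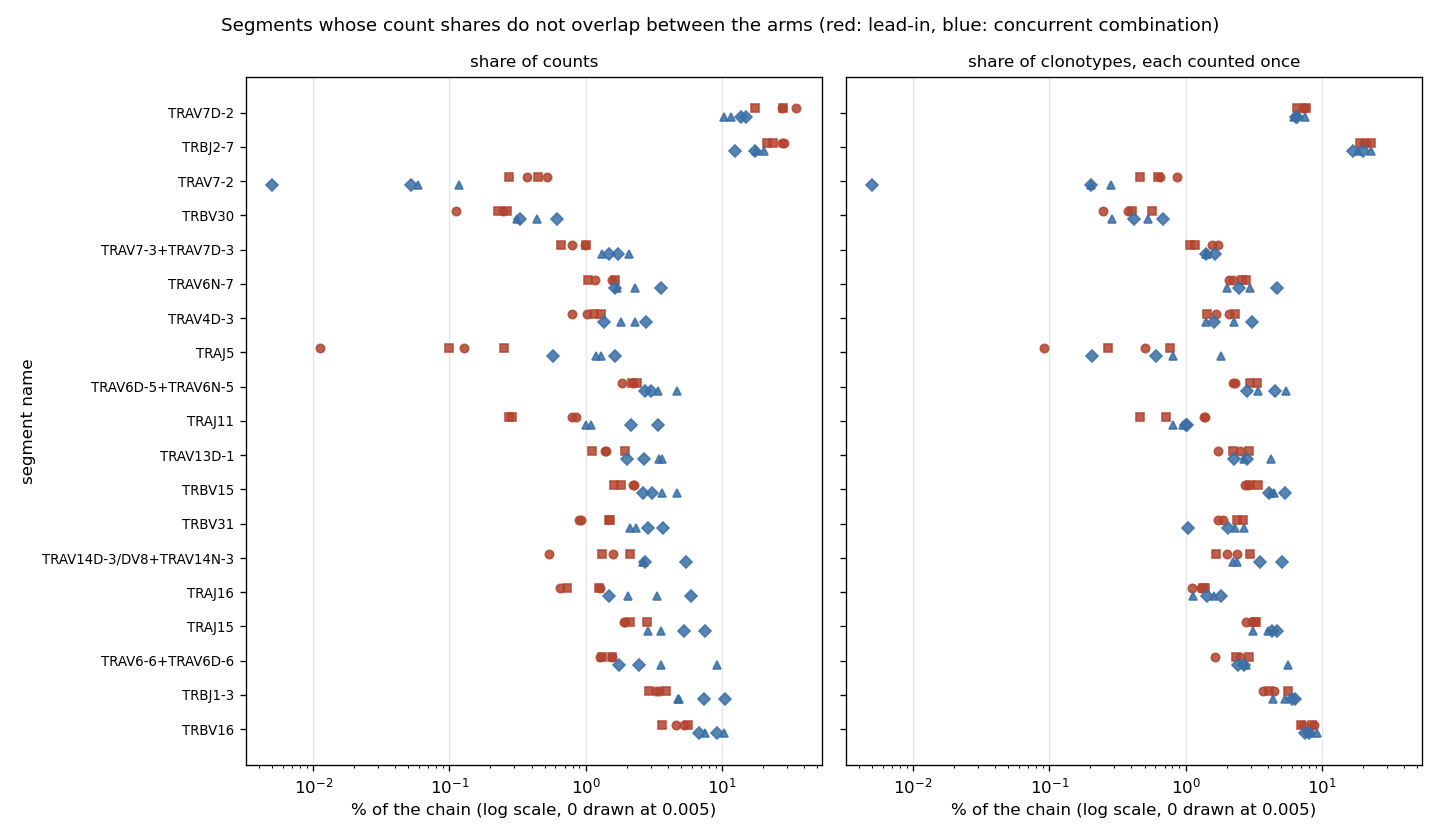
Points give the share in percent of the chain (x axis, log scale, 0 drawn at 0.005) of each V or J segment whose count shares do not overlap between arms, by counts (left) and with each clonotype counted once (right); marker shapes are the numbers 12 (circle), 14 (square), 1 (triangle) and 6 (diamond). By counts TRAV7D-2 lies at 17.4% to 34.9% in the lead-in samples and 10.4% to 15.0% in the concurrent samples, and the arms overlap on the right for all but 2 of the 19 segments.

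Innate-like T cells carry nearly fixed alpha chains and were looked for by their segments. Invariant natural killer T cells, which see lipids on CD1d, use TRAV11 with TRAJ18, and mucosal-associated invariant T cells, which see microbial metabolites on MR1, use TRAV1 with TRAJ33. TRAV11, TRAV11D or TRAV11N with TRAJ18 took 0.810%, 0.458%, 0.809% and 1.31% of TRA counts in the lead-in samples (43 to 72 counts) and 0.412%, 1.64%, 1.24% and 1.72% in the concurrent samples (7 to 70 counts). The arms overlapped, with sample 1-1 lowest and sample 6-2 highest. A clonotype of TRAV11N with TRAJ18 and a CDR3 of 15 residues was in all 10 brain numbers and took 0.266% to 0.905% in the lead-in samples and 0.412% to 1.25% in the concurrent ones. No TRAV1 count with TRAJ33 was found in the 8 samples, which allows a share of up to 0.0320% (12-2) to 0.177% (1-1).

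CDR3 features of the beta chain did not separate the arms. The mean CDR3 length, weighted by counts, was 14.03, 13.95, 14.20 and 14.27 residues in the lead-in samples and 13.75, 13.90, 13.98 and 14.27 in the concurrent ones. With each clonotype counted once it was 13.90 to 14.02 and 13.90 to 14.07. Chains with hydrophobic residues at CDR3 positions 6 and 7, counted from the first residue, took 3.10%, 4.12%, 5.83% and 4.70% with the lead-in and 5.10%, 4.19%, 1.77% and 1.77% without it. The arms overlapped, and number 6 was low in both parts.

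Ovary metastases were sampled for numbers 12 and 1, and in both the large brain clonotypes were found there too. Clonotypes of the ovary of the same number held 68.0% and 58.3% of the TRB counts of brain samples 12-1 and 12-2, and 51.6% and 46.6% of 1-1 and 1-2. Clonotypes of the other number's ovary held 2.45% to 3.41%. All 10 of the largest TRB clonotypes of each of the 4 brain samples were in the ovary of their own number, and 0 to 2 of them in the other. For TRA the shares were 74.2% and 63.9% in number 12 and 61.6% and 56.9% in number 1, against 8.63% to 11.6% for the other number's ovary. The sharing with the ovary was thus high in the lead-in and in the concurrent number. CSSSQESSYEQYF took 4.45% and 6.42% of the ovary parts of number 12, and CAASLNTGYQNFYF took 29.0% and 30.8%.

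In the ovary, number 12 was more concentrated than number 1, and their counts were close. There the log2 TRB count was lower by 0.14 in number 12 than in number 1 (14.34 against 14.48), whereas in the brain the same numbers had 12.59 and 11.03. The TRB Simpson concentration was 2.13% in the ovary of number 12 and 0.742% in that of number 1, and the TRA concentration was 9.81% and 0.851%. With 1 number per arm in the ovary these values have no test, and the difference between the organs was not tested.

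**Figure D5:**
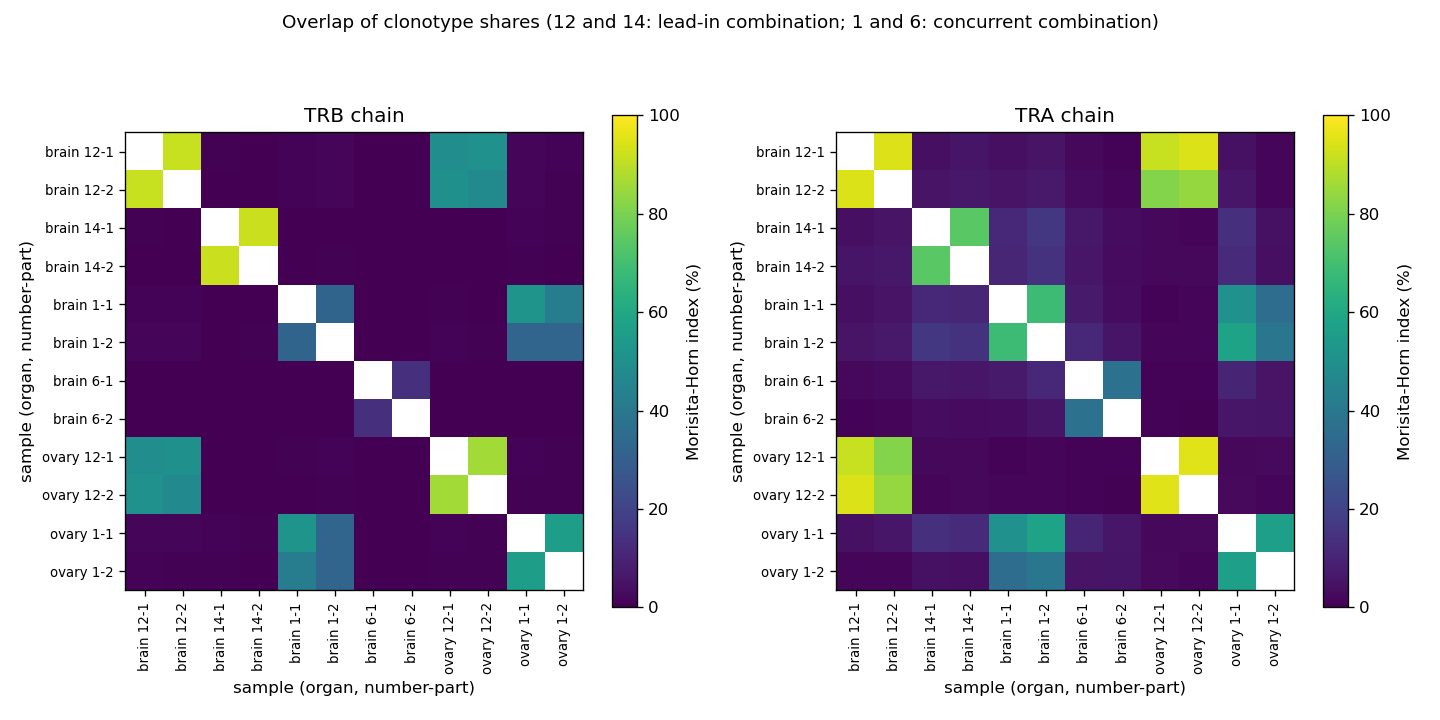
Colour gives the Morisita-Horn index in percent between each pair of samples (both axes: organ, number and part) for TRB (left) and TRA (right), with the diagonal left blank; 12 and 14 had the lead-in combination and 1 and 6 the concurrent one. Bright blocks join samples of the same number, across organs as well (TRB 32.5% to 51.8%), and pairs of different brain numbers reach at most 1.48% in TRB and 16.1% in TRA.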

How the data were processed

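T cell receptor transcripts of mouse brain and ovary metastases were sequenced with a QIAseq immune repertoire library kit for RNA (per the labels' protocols). Whole-number counts for each combination of chain, segments and CDR3 were deposited in 1 table and carry no normalization. Neither the aligner nor the caller is given in the sources used here, nor is it said if molecules or reads were counted. GRCh38, a human build, stands in the submitters' processing notes, so coordinates are left out. Of 49519 table entries, 49343 with a CDR3 of the 20 standard residues were kept, and 0.0416% of the counts of the 8 samples were left out. The 8 samples held 1300 to 7067 TRB and 1697 to 9389 TRA counts.

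Per sample, log2 count, unbiased Simpson concentration, expected clonotypes at equal depth (hypergeometric) and the share of the 10 largest clonotypes were computed for both chains. Part values were averaged within each number and tested by two-sided exact permutation over numbers, with Benjamini-Hochberg adjustment over these 8 measures. V and J segment counts, summed over parts, went into edgeR 4.0.16 (quasi-likelihood test with the log chain total as offset, all 10 brain libraries, segments reaching 10 counts in 2 libraries or more; R 4.3.3), adjusted over 99 V or 53 J segments, with DESeq2 1.42.0 as an alternative. The SE beside a log2 difference was worked back from the test, as the size of the difference over the square root of edgeR's F statistic. Other steps ran in Python 3.11.15 (scipy 1.17.1, numpy 2.4.6, pandas 2.3.3) and were tested on simulated repertoires. A zero was taken to allow 3 counts. The segments named for their difference without overlap, with TRAV7D-2, TRBV23, TRBV29 and TRBV4, have 21 separate names. All 21 were matched to RefSeq symbols of GRCm38.p6. The other segment names in the text were not among them.

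Named were the segments past the threshold, the 5 segments per chain and type with the largest difference among those without overlap, the 5 leading clonotypes per number and chain, the 5 largest clonotypes shared in an arm and those in all 4 numbers, the innate-like chains, and TRAV7D-2, TRBV23, TRBV29 and TRBV4. The samples, measures and lists were chosen with earlier results of these data known. CDR3 sequences of over 14 residues are given by their segments and length.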

Additional observations from a re-analysis of the deposited data

Results flagged for a closer look

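In 6 measures 1 sample lay far from the other 3 of its arm, by its gap to the nearest divided by the range of the 4. Chance alone gives about 1 such case in 20 groups of independent samples, but the parts of a number are not independent. The number of groups looked at is not given, and several of these measures go together, so the 6 cannot be set against that rate. Sample 1-2 of the concurrent arm was the highest in log2 TRA count, at 12.06 against 10.73 to 10.91, and in log2 TRA richness at equal depth, at 9.45 against 8.89 to 8.95. Sample 12-2 of the lead-in arm was the lowest in the share of TRB counts in clonotypes of 1% or more, at 21.8% against 32.0% to 32.7%. Sample 1-1 was the highest of the concurrent samples in the share of the TRBJ1 cluster, at 39.8% against 35.4% to 35.9%. Sample 6-1 was the highest in TRBV4, at 13.9% against 1.68% to 3.41%, and sample 6-2 in TRAV14D-3/DV8+TRAV14N-3, at 5.47% against 2.65% to 2.71%.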

How the results depend on the processing

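The log2 counts, concentrations and shares of the 10 largest clonotypes kept the lead-in arm higher under every alternative run, and none passed the threshold. The count difference stayed at 1.44 to 2.05 (TRB), whereas the concentration difference ran from 0.433 to 1.59 points (TRB) and 0.543 to 4.11 (TRA). The difference of the 10 largest clonotypes ran from 6.52 to 16.5 (TRB) and 6.36 to 17.2 (TRA). Richness had no stable direction: the TRB difference became 0.29 with single counts left out and -0.31 to 0.12 with a part or number left out, and the TRA difference became -0.13 with parts summed, -0.15 at 500 counts and -0.10 to 0.19 with a part or number left out. V segment calls by edgeR rose from 0 to 1 (TRAV7D-2) when low counts were not filtered (adjusted p = 0.00380) or parts were kept as separate libraries (adjusted p = 0.0265), and were 0 to 2 with a number left out (TRAV7D-2 and TRBV23 without number 14). J segment calls were 1 with the largest clonotypes left out (TRAJ23) and 0 to 1 with a number left out (TRAJ49 without number 14). TRAJ23, the J segment of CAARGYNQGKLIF, had an edgeR adjusted p of 0.00787 with the largest clonotypes left out. TRAJ49 is the J segment of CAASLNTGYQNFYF, which held 20.7% of TRA counts in number 12 on average, where the rest of TRAJ49 held 2.08%. With each clonotype counted once the log2 differences turned to 0.13 (TRBV31), 0.41 (TRAJ11) and -0.20 (TRBV29), and TRBV29 was -0.97 without the largest clonotypes and -1.11 to 1.02 with a number left out. TRBV23 ranged from -1.29 to 4.63 with a number left out. Overlap of TRB parts differed by 44.3 points without the largest clonotype of each sample and by 59.4 to 78.2 with a number left out, and that of TRA parts by 16.1 to 47.0 with a number left out. The alternatives for overlap were chosen after the data had been seen. The cause of these changes was not tested. No paired analysis was possible because the arms share no number. Depth limits zeros to at most 0.231% of TRB and 0.177% of TRA counts.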
